A study of Mus musculus with 32 samples.

Results

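The tumor necrosis factor (TNF) superfamily joins a family of ligands, most of them made as trimers on the cell surface and some of them shed, to a family of receptors. Receptors with a death domain can start apoptosis, whereas receptors that bind TRAF adaptors activate NF-κB and MAP kinases. In islets these proteins are known for cytokine killing of β cells and for crosstalk between immune cells, vessels, and endocrine cells. The transcripts described here are the rows of the expression table whose symbol starts with Tnfsf or Tnfrsf, or is *Tnf*, *Lta*, *Ltb*, *Ltbr*, *Cd40*, *Cd40lg*, *Cd27*, *Cd70*, *Fas*, or *Fasl*, 41 rows of 22850, which carry 40 symbols because *Tnfrsf22* has 2 rows. By role they are 16 ligands, 5 death domain receptors, 7 TRAF-binding receptors of innate and stromal cells, 8 receptors known mainly from lymphocytes, and 5 decoy or other receptor rows. *Tnfsf12* was not analysed here.

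From islets of adult C57BL/6 mice, β cells, ECs (endothelial cells), and MΦs (macrophages) were sorted. The strain joined RIP-rtTA and TetO-VEGF-A, by which doxycycline (Dox) turns on a human VEGF-A transgene under control of the rat insulin promoter, with MIP-GFP, a reporter driven by the mouse *Ins1* promoter. Mice of all groups carried all 3 transgenes. No Dox mice were untreated, 1wk Dox mice drank Dox for 1 week, and 1wk WD mice were studied 1 week after Dox was taken away (WD). Sorted β cells were GFP+ cells without CD31 or CD11b, ECs were CD31+ and MΦs were CD11b+, and islets of several mice were pooled for each sample. In that order of groups, β cells had 4, 5, and 3 libraries, ECs had 4, 1, and 5, and MΦs had 4, 2, and 4.

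Values are normalized scores, whole numbers with 1 as the lowest, and whether they were scaled by transcript length is not stated, so levels are compared between libraries for a given gene and not between genes. Depth is unknown, and summed scores ranged from 23465985 to 53441769 per library. EC markers summed to 207574 to 299374 in ECs and at most 2671 in MΦs, and MΦ markers summed to 219411 to 398236 in MΦs and at most 887 in ECs. The β-cell libraries were less alike. Markers of stromal cells (*Pdgfra*, *Pdgfrb*, *Col1a1*, *Col1a2*) summed to 217 and 142 in No Dox replicates 1 and 2, to 41155 and 122545 in No Dox replicates 3 and 4, and to 9699 to 166017 in the 8 Dox and WD libraries. Acinar markers reached 3345224 in β-cell No Dox replicate 3 and 2539970 in MΦ No Dox replicate 2. The library numbers in the file header fall into 2 runs, and the second run holds both 1wk Dox MΦ libraries, the 1wk Dox EC library, and 1 of the 1wk WD β-cell libraries.

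In β cells 34 of the 41 rows had a mean score of 20 or more in some time point, against 26 rows for ECs and 35 rows for MΦs. *Cd70* and *Tnfsf11* were under 20 in every group. A row passed a comparison at a difference of 2-fold or more with an adjusted p under 0.05, from a limma fit over all genes on log2(score + 1). At scores near 1 a difference on this scale depends on the added 1 and is smaller than the ratio of the scores.

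**Figure D1:**
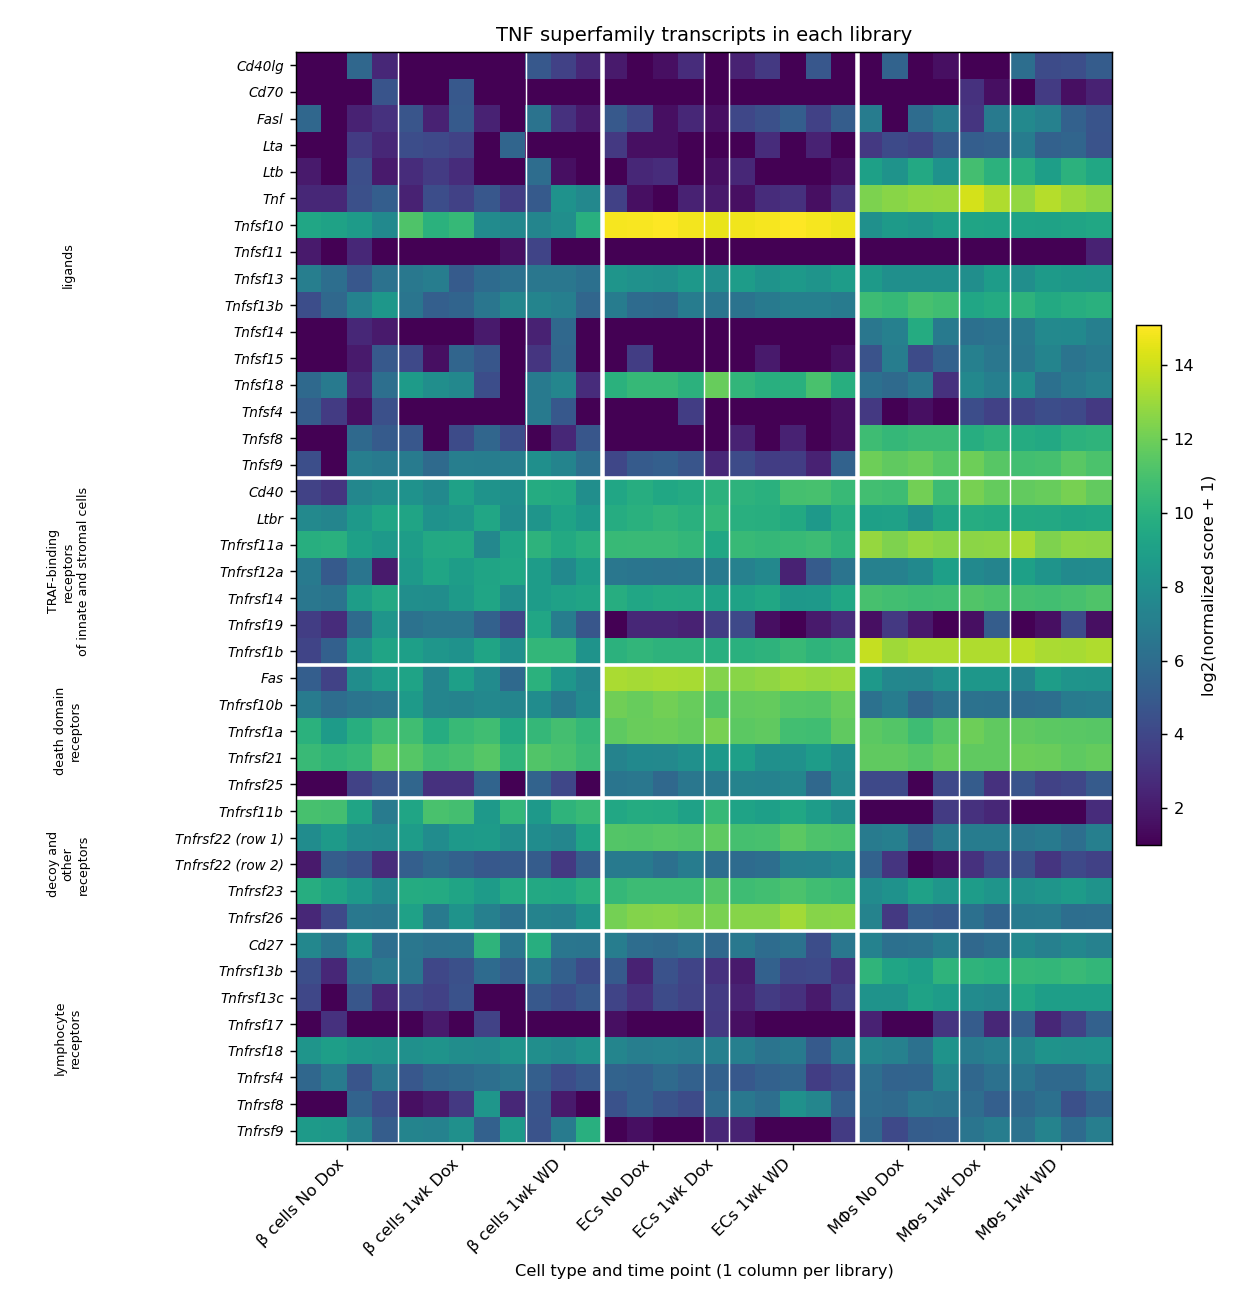
Scores of the 41 TNF superfamily rows as log2(score + 1), with 1 column for each of 32 libraries grouped by cell type and time point and rows grouped by role; colors can be compared along a row and not between rows. *Tnf*, *Tnfsf8*, *Tnfsf9*, and *Tnfrsf1b* are brightest in MΦs, *Tnfsf10*, *Fas*, *Tnfrsf10b*, and *Tnfrsf26* in ECs, and *Tnfrsf11b* is dark in MΦs.

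The first question was which of the 3 cell types carried each ligand and receptor before VEGF-A induction. *Tnf*, *Ltb*, *Tnfsf8*, *Tnfsf9*, *Tnfsf13b*, *Tnfsf14*, and *Tnfsf15* were higher in MΦs than in both other cell types, *Tnfsf10* and *Tnfsf18* were higher in ECs, and receptors were found high in each of the 3. At No Dox 11 of 16 ligands and 24 of 25 receptor rows were tested. *Tnf*, *Ltb*, *Tnfsf14*, *Tnfsf15*, *Fasl*, and *Tnfrsf13c* reached a mean of 20 in MΦs alone, *Tnfrsf25* and the lower *Tnfrsf22* row in ECs alone, and *Tnfrsf19* in β cells alone. At 1wk WD *Tnfsf8*, *Tnfsf14*, *Tnfsf15*, *Lta*, *Cd40lg*, and *Tnfrsf17* did so in MΦs alone and *Tnfsf4* and *Tnfrsf19* in β cells alone, so these entered through the cell type in which they were high and the counts of members are no support for a share of any cell type. Between MΦs and ECs, 13 members were higher in MΦs and 11 in ECs of 35 tested, against 33.5% of all genes called in either direction. MΦs exceeded β cells in 17 members and were below them in 5 (43.2% of all genes called), and ECs exceeded β cells in 16 and were below them in 4 (37.7% of all genes called). The same 3 comparisons at 1wk WD, in other libraries, gave 22 higher and 10 lower of 39 for MΦs against ECs (40.3% of all genes called), 18 and 5 for MΦs against β cells (46.2%), and 12 and 9 for ECs against β cells (39.9%). Of the 24 members called between MΦs and ECs at No Dox, 23 were called in the same direction at 1wk WD, which is 95.8% of the first set and 71.9% of the second, against 83.9% and 69.4% for all genes. For MΦs against β cells 18 calls were shared, 81.8% and 78.3% of the sets (79.8% and 74.2% for all genes), and for ECs against β cells 15, 75% and 71.4% (75.2% and 70.7% for all genes). These shared calls include members that entered a fit through 1 cell type, so their shares are no support either.

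**Figure D2:**
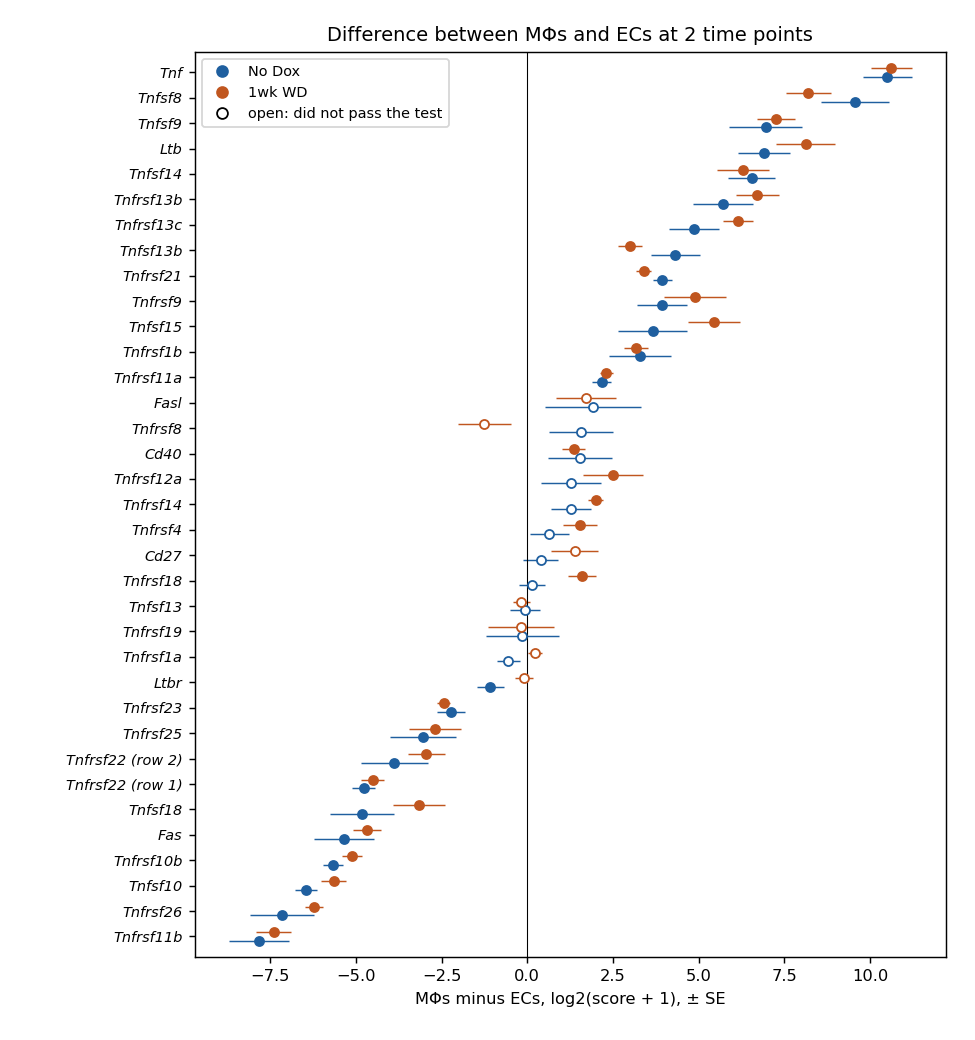
Difference between MΦs and ECs in log2(score + 1), with its SE, for the 35 members tested at both time points; filled points passed the test and open points did not. *Tnf* lies farthest to the right at 10.50 and 10.62, *Tnfrsf11b* farthest to the left at −7.83 and −7.40, and the No Dox and 1wk WD points of most members lie close together. The filled No Dox points of *Tnf*, *Ltb*, *Tnfsf14*, *Tnfsf15*, *Tnfrsf13c*, *Tnfrsf25*, and the lower *Tnfrsf22* row support nothing, since these entered through 1 cell type. The same holds at 1wk WD for *Tnfsf8*, *Tnfsf14*, and *Tnfsf15*.

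Among the ligands, *Tnf*, the founding inflammatory cytokine of the family, scored 5176, 6267, 7279, and 7358 in No Dox MΦs, 12, 2, 1, and 4 in ECs, and 5, 5, 21, and 36 in β cells. No MΦ library came near the range of the other cell types, and the difference was 10.50 ± 0.71 (SE) against ECs and 8.95 ± 0.71 against β cells on the log2 scale. These are given with no p, since *Tnf* was tested at No Dox through its MΦ level alone. At 1wk WD the differences were 10.62 ± 0.59 and 6.10 ± 0.67. *Tnf* then scored 31, 288, and 188 in the β-cell libraries, and the second difference was 5.15 without replicate 1 and 6.73 without replicate 2. These β-cell libraries had MΦ marker sums of 4368, 3773, and 5438 against 480 to 4090 at No Dox. The part of MΦ transcripts in these β-cell scores was not tested.

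*Tnfsf8*, which encodes CD30 ligand, scored 1651, 1317, 1544, and 1575 in No Dox MΦs and was listed at the lowest score, 1, in all 4 EC libraries, so no fold is given. In β cells it scored 1, 1, 55, and 32, and its receptor gene *Tnfrsf8* did not exceed 97 in any MΦ library. *Tnfsf9*, the ligand of the costimulatory receptor 4-1BB, scored 3998, 3217, 3728, and 2628 in MΦs, 15, 32, 38, and 25 in ECs, and 20, 1, 131, and 109 in β cells. MΦs lay above both other cell types without overlap, by 6.95 ± 1.06 and 6.91 ± 1.06 log2 units (limma adjusted p = 0.0002041 and 0.0001917), and the second value was 5.64 without β-cell replicate 2, 7.65 without replicate 3, and 7.56 without replicate 4. *Ltb*, which joins lymphotoxin α in the membrane heterotrimer, scored 517, 304, 735, and 294 in MΦs and 1 to 6 in ECs, a difference of 6.90 ± 0.76, also given with no p because *Ltb* entered through MΦs alone. *Lta* itself had a mean under 20 in every No Dox group, and scored 120, 40, 48, and 23 in MΦs at 1wk WD against 1 to 6 in ECs. *Tnfsf14* (LIGHT) was at 1 in every EC library of the 3 time points and scored 95, 142, 808, and 109 in No Dox MΦs, which also held the highest scores of its receptor *Tnfrsf14*, from 1708 to 2062 against 656 to 885 in ECs. *Tnfrsf14* did not pass between MΦs and ECs at No Dox and did pass at 1wk WD. *Tnfsf13b* (BAFF, a B-cell survival factor) scored 1612, 1404, 2003, and 1776 in No Dox MΦs against 56 to 121 in ECs.

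Other ligands were EC transcripts. *Tnfsf10*, the death ligand TRAIL, scored 30897, 31187, 34960, and 29910 in No Dox ECs, a mean of 31738 ± 2216 (SD, n = 4), against 265 to 472 in MΦs and 202 to 655 in β cells. ECs were 75.2-fold above β cells and 87.7-fold above MΦs (adjusted p = 7.51e-08 and 2.258e-08), and 88.1-fold and 50.1-fold above them at 1wk WD, where the difference over β cells, 6.46 log2 units, was 7.19 without β-cell replicate 3. *Tnfsf18* (GITR ligand) scored 1026, 1379, 1406, and 1079 in No Dox ECs, 74, 57, 94, and 7 in MΦs, and 56, 108, 5, and 69 in β cells. Its receptor gene *Tnfrsf18* scored 322, 469, 357, and 308 in β cells, 170, 130, 141, and 125 in ECs, and 174, 144, 75, and 303 in MΦs. ECs were lower than β cells, with a difference of −1.35 ± 0.39 log2 units at No Dox (adjusted p = 0.01269) and −1.54 ± 0.44 at 1wk WD, whereas MΦs were lower at No Dox (−1.21 ± 0.39, a call lost without β-cell replicate 2, without MΦ replicate 3, or with only the 2 groups) and did not pass at 1wk WD (0.06 ± 0.46).

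The death domain receptors fell into 3 patterns. *Fas* scored 10219, 9484, 9986, and 9713 in No Dox ECs, 379, 180, 176, and 278 in MΦs, and 36, 13, 239, and 443 in β cells. *Tnfrsf10b*, the TRAIL death receptor, scored 4213, 3677, 4358, and 3629 in ECs, 76, 118, 50, and 77 in MΦs, and 114, 65, 85, and 96 in β cells. ECs were above both other cell types for these 2 receptors, by 6.84 ± 0.87 log2 units over β cells for *Fas* and by 5.47 ± 0.29 over β cells and 5.67 ± 0.29 over MΦs for *Tnfrsf10b* (adjusted p = 5.304e-05, 9.296e-08, and 2.718e-08). The *Fas* value was 5.96 without β-cell replicate 2 and 7.62 without replicate 4. At 1wk WD the differences over β cells were 4.23 ± 0.44 for *Fas*, whose β-cell scores ran from 183 to 1007 and whose value was 4.90 without replicate 1, and 4.13 ± 0.32 for *Tnfrsf10b*. *Tnfrsf21* (death receptor 6) was low in ECs, at 156, 203, 201, and 266, and scored 1488, 1178, 1412, and 3150 in β cells and 3233, 3230, 2669, and 3461 in MΦs. ECs were below β cells by 3.04 ± 0.28 (adjusted p = 5.152e-06). *Tnfrsf1a*, the broadly expressed TNF receptor, scored 3150 to 3969 in ECs, 1709 to 2957 in MΦs, and 419 to 1658 in β cells, and MΦs and ECs did not pass the test against each other at No Dox (−0.56 ± 0.34) or at 1wk WD (0.22 ± 0.21). β cells passed below both other cell types at No Dox and below neither at 1wk WD. *Fasl*, the *Fas* ligand, reached at most 200 in any library.

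Of the TRAF-binding receptors, *Tnfrsf1b*, the second TNF receptor, scored 14937, 8748, 10589, and 10550 in No Dox MΦs, 1044, 1243, 1113, and 1103 in ECs, and 14, 39, 290, and 599 in β cells. MΦs exceeded β cells by 6.76 ± 0.90 log2 units at No Dox and 3.75 ± 0.40 at 1wk WD (adjusted p = 6.716e-05 and 3.735e-06). The first was 5.85 without β-cell replicate 1 and 7.62 without replicate 4, and the second 3.05 without replicate 3. *Tnfrsf11a* (RANK, which drives osteoclast formation) was higher in MΦs, at 5193 to 7561, than in ECs at 1304 to 1506 or β cells at 381 to 980, while its ligand *Tnfsf11* did not exceed 14 in any library. *Cd40* scored 1797, 1652, 4398, and 1639 in MΦs, 653, 872, 682, and 773 in ECs, and 13, 8, 180, and 238 in β cells. ECs and MΦs both passed above β cells, MΦs did not pass against ECs at No Dox (1.54 ± 0.93, adjusted p = 0.2122) but did at 1wk WD (1.36 ± 0.33, adjusted p = 0.003599), and its ligand *Cd40lg* reached at most 67. *Tnfrsf19* scored 11, 6, 58, and 326 in β cells at No Dox and 636, 127, and 26 at 1wk WD. It was called higher in β cells than in both other types at both time points, and it entered each fit through β cells alone, so these calls support nothing. In the 2 No Dox β-cell libraries with few stromal transcripts it scored 11 and 6, against 1 to 5 in ECs and 1 to 9 in MΦs, and the No Dox call over ECs was lost in 8 of 14 alternatives and that over MΦs in 5 of 14.

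Among receptors known mainly from lymphocytes, *Tnfrsf13b* (TACI) and *Tnfrsf13c* (BAFF receptor), which bind the product of *Tnfsf13b*, were MΦ transcripts like their ligand. *Tnfrsf13b* scored 1192, 616, 494, and 1159 in No Dox MΦs against 4 to 31 in ECs, and *Tnfrsf13c* 300, 303, 562, and 445 against 7 to 18. B-cell markers summed to 142 to 840 in MΦ libraries, and 6 to 78 in EC libraries, and their part in these scores was not tested. *Tnfrsf9* (4-1BB) had its highest mean in β cells at No Dox, at 411, 361, 154, and 35, against 16 to 52 in MΦs and 1, 2, 1, and 1 in ECs. The 2 libraries with the highest β-cell marker sums, replicates 1 and 2, held the 2 highest *Tnfrsf9* scores.

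All 5 rows of decoy and orphan receptors were higher in ECs than in MΦs at No Dox, where 15.9% of all genes were called in that direction, and again at 1wk WD, where 19.6% were. *Tnfrsf11b* (osteoprotegerin, the soluble decoy for RANK ligand and TRAIL) scored 694, 800, 790, and 536 in ECs and 2037, 1898, 592, and 117 in β cells, but 1, 1, 1, and 10 in MΦs. The difference between MΦs and ECs was −7.83 ± 0.87 log2 units at No Dox and −7.40 ± 0.52 at 1wk WD (adjusted p = 1.561e-05 and 4.033e-08), and the first was −8.45 without MΦ replicate 4. Over all alternatives the first ran from −8.446 to −4.964 and the second from −7.853 to −4.445, so the size is uncertain. *Tnfrsf26*, of the same gene cluster as the TRAIL decoys, scored 4625, 5681, 5851, and 5242 in ECs, 156, 9, 38, and 31 in MΦs, and 5, 16, 98, and 91 in β cells. *Tnfrsf23*, a TRAIL decoy, scored 1356 to 1631 in ECs and 220 to 541 in MΦs. *Tnfrsf22*, the other TRAIL decoy, has 2 overlapping rows on the same strand, whose shared reads cannot be divided with certainty, and both were higher in ECs. The lower row, at 73 to 122 in ECs and 1 to 42 in MΦs, entered the No Dox fit through ECs alone, so its call there counts for nothing beside the all-gene share. The higher row scored 2538, 2498, 2630, and 2498 in ECs, 114, 137, 43, and 105 in MΦs, and 226, 414, 230, and 214 in β cells, so MΦs were also the lowest of the 3.

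The remaining members were low or followed 1 of the same patterns. *Tnfsf13* (APRIL, a second ligand of TACI) scored 259 to 371 in No Dox ECs and 259 to 415 in MΦs against 27 to 129 in β cells, which were below both (limma adjusted p = 0.001181 and 0.001218), and its row overlaps *BC096441* on the same strand. *Tnfsf15* (TL1A) scored 23, 125, 18, and 41 in No Dox MΦs and 1, 11, 1, and 1 in ECs, whereas its receptor *Tnfrsf25* scored 89, 95, 54, and 97 in ECs and 16, 16, 1, and 16 in MΦs. Each entered the No Dox fit through the cell type in which it was high, so these levels are a description and their calls support nothing. *Cd27*, a lymphocyte costimulatory receptor, passed no cell type comparison at No Dox or 1wk WD. Its 2 highest scores, 1140 and 919, were in the β-cell libraries with the 2 highest T-cell marker sums of that cell type, 10633 and 12244. *Tnfrsf4* (OX40) did not exceed 163 in any library, nor its ligand *Tnfsf4* 107.

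**Figure D3:**
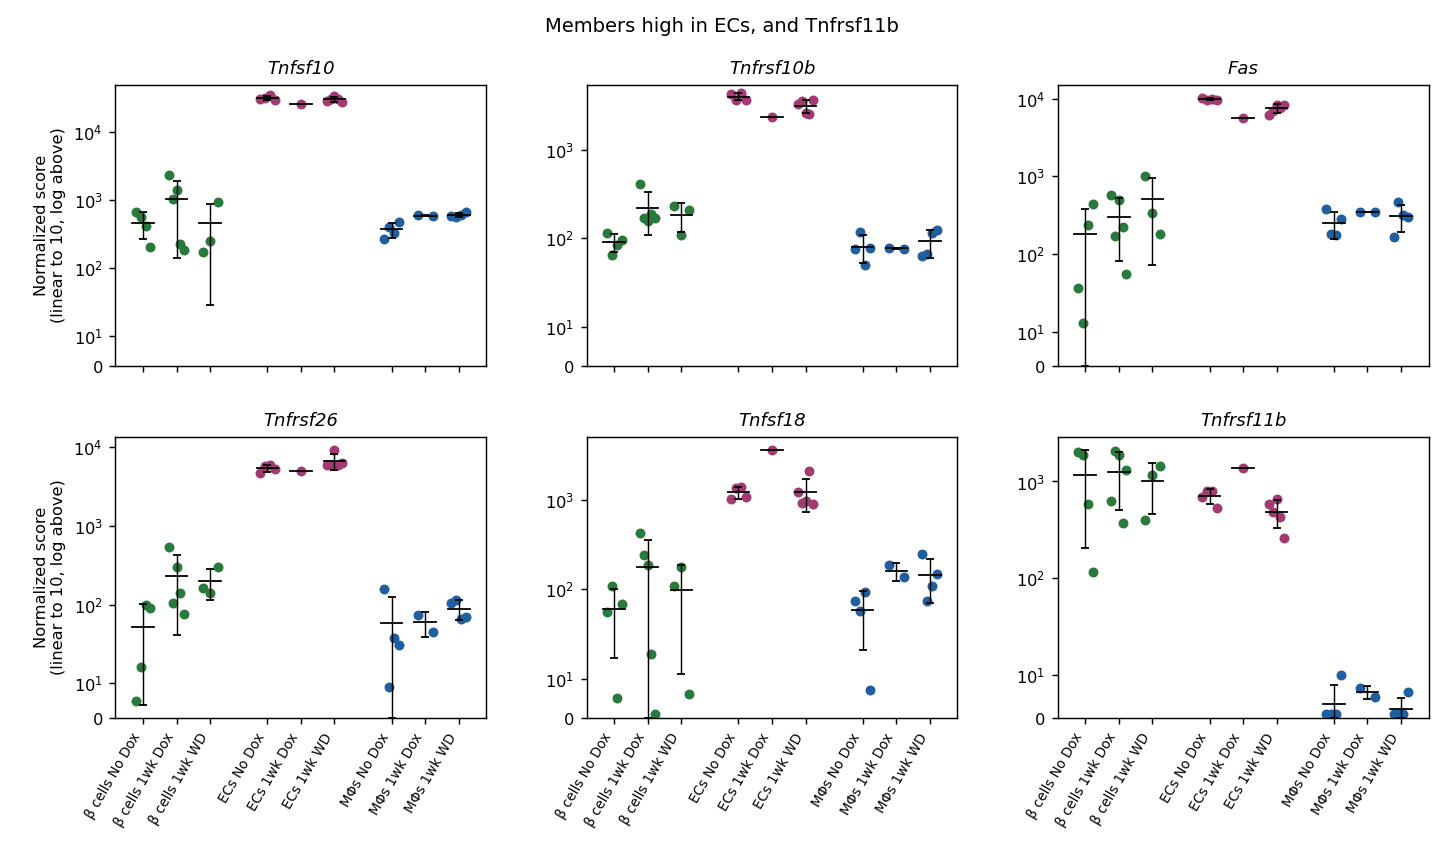
Normalized scores of 5 members high in ECs and of *Tnfrsf11b*, by cell type and time point, on an axis that is linear to 10 and logarithmic above; points are libraries, long bars means, and whiskers SD, stopped at 0. EC points of *Tnfsf10* lie between 25480 and 34960, above every β-cell and MΦ library, and MΦ points of *Tnfrsf11b* do not exceed 10.

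Within MΦs, the comparison with 1wk Dox asked what changed in these cells during VEGF-A induction. A pair of ligands rose and 1 fell. Of 35 members tested 3 passed, where 2.26% of all genes passed. With 2 libraries against 4, 14 members did not overlap No Dox, where 30.9% of all genes did not. *Tnf* scored 18758 and 10721 at 1wk Dox, both above the highest No Dox library at 7358, and rose by 1.14 ± 0.26 log2 units, or 2.20-fold (limma adjusted p = 0.03113). *Ltb* scored 1917 and 1077, above the No Dox range of 294 to 735, and rose by 1.74 ± 0.41, or 3.34-fold (adjusted p = 0.03485). *Tnfsf13b* scored 644 and 775, below the No Dox range of 1404 to 2003, and fell by 1.25 on the log2 scale (SE 0.20), which is 2.38-fold lower (adjusted p = 0.009196). The 1wk Dox group had 2 libraries, and leaving out either left 0 members called. Both belong to the second run of library numbers, which holds no No Dox library, so the run and the Dox treatment cannot be told apart. In a fit of the No Dox and 1wk Dox libraries alone 0 members passed, without No Dox replicate 1 *Tnfsf13b* was the 1 call, and without No Dox replicate 4 *Ltb* lost its call. All 3 calls were also lost without the trend of the spread or with the replicate block, and those of *Tnf* and *Ltb* without the filter on low scores. Of 12 alternatives, 8 ended the call of *Ltb*, 7 that of *Tnf*, and 5 that of *Tnfsf13b*.

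Lymphocyte transcripts are listed beside these ligands because lymphocytes are a known source of *Ltb*, and their part in the change was not tested. In MΦs *Cd3e*, *Cd3d*, and *Cd3g*, which define T cells, scored at most 18, 28, and 7 at 1wk Dox and at most 154, 69, and 7 at No Dox. The summed T-cell list did differ, at 2700 and 3076 against 944 to 1663, through *Cd4*, which scored 2624 and 2996 against 861 to 1442. B-cell markers summed to 334 and 486 against 142 to 607, and NK-cell markers to 162 and 833 against 203 to 1099. MΦ markers summed to 393521 and 321409 against 219411 to 304594 and EC markers to 2671 and 2390 against 1235 to 1785, both without overlap. *Itgam*, which encodes the sorted antigen CD11b, was lower without overlap, at 21379 and 22708 against 29382 to 45478. Acinar markers summed to 156 and 880 against 10015 to 2539970. The part of these shifts in the 3 changes was not tested. *Ccr7*, a marker of migrating dendritic cells, scored 5487 and 5672 against 973 to 3315 at No Dox, and *Flt3* scored 2978 and 3479 against 5443 to 7609. The part of dendritic cells in the CD11b+ libraries was not tested. In these bulk libraries, fewer cells of a type and less RNA per cell cannot be told apart.

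The promoters of these 3 ligands are shown because they were the members that passed a test between time points. The sequences are from RefSeq on GRCm38.p6, cover 250 bases before and 50 bases after the start, and are written 5′ to 3′ on the gene's strand. *Ltb* lies on the + strand at chr17:35194257-35194556, *Tnf* close by on the − strand at chr17:35201958-35202257, and the first of 2 *Tnfsf13b* starts on the + strand at chr8:10006217-10006516. Capitals mark the NF-κB consensus searched on both strands.
Ltb: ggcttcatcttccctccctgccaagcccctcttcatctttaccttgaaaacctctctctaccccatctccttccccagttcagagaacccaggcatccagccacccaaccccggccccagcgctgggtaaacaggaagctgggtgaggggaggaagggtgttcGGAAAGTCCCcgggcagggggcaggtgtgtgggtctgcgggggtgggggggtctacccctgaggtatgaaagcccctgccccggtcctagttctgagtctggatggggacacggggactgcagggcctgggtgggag
Tnf: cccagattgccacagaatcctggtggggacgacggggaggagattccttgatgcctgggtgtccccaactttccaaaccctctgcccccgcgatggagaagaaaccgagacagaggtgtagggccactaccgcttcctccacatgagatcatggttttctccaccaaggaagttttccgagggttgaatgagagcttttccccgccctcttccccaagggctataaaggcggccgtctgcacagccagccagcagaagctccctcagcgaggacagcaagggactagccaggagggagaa
Tnfsf13b: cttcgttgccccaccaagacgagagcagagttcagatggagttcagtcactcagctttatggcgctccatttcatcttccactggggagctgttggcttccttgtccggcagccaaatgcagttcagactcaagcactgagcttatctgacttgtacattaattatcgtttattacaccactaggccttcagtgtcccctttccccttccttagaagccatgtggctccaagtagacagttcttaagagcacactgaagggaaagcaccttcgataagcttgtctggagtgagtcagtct
The *Ltb* window held 1 NF-κB consensus match, which begins at −87 from the start of transcription, and the *Tnf* and *Tnfsf13b* windows held 0. Of 32851 promoters of this length 8.46% held a match, and of 35 windows of the members, from 31 of the 40 symbols, 4 did (11.4%). A second motif, the STAT motif TTCNNNGAA, was in 8.3% of all promoters, in 9 of the member windows (25.7%), and once in the *Ltb* window. Some genes have more than 1 window, and these can overlap. A match of letters is a description of the sequence and not a measured site.

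**Figure D4:**
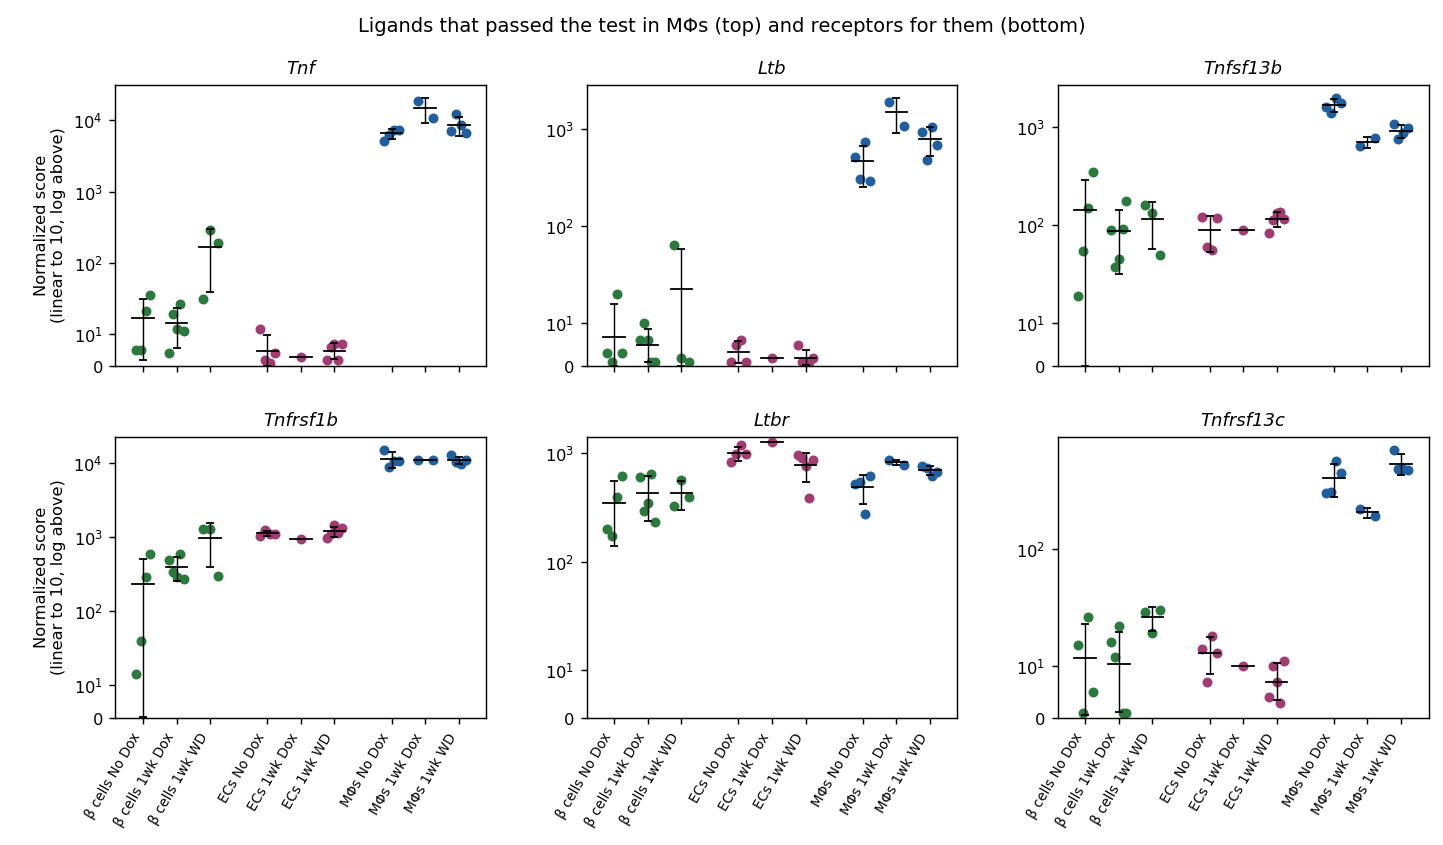
Normalized scores of the 3 ligands that passed in MΦs (top) and of a receptor for each (bottom), by cell type and time point, on an axis that is linear to 10 and logarithmic above; points are libraries, long bars means, and whiskers SD, stopped at 0. The 2 MΦ libraries at 1wk Dox lie above the No Dox points for *Tnf* and *Ltb* and below them for *Tnfsf13b*.

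The receptors of the 3 ligands did not pass. In MΦs *Tnfrsf1b* scored 10855 and 11028 at 1wk Dox, inside the No Dox range. *Tnfrsf1a* scored 4083 and 3277 against 1709 to 2957 (0.59 ± 0.20, adjusted p = 0.1111), and *Ltbr*, the receptor of the *Ltb* heterotrimer, 855 and 784 against 274 to 609 (0.82 ± 0.29, adjusted p = 0.1257). *Tnfrsf13c* scored 218 and 189 against 300 to 562 (−0.93 ± 0.31, adjusted p = 0.1061), and *Tnfrsf13b* 1158 and 1016 against 494 to 1192. *Tnfrsf17*, the third receptor for BAFF, did not exceed 40 in any library.

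After withdrawal, 0 of 35 members passed in MΦs against No Dox, where 0.626% of all genes passed, although 14 members (40%) had an unadjusted p under 0.05, 11 of them higher and 3 lower, against 17.3% of all genes. *Tnfsf13b* scored 1085, 757, 883, and 974, again below the No Dox range, a difference of −0.88 ± 0.17 that passed on p (adjusted p = 0.02858) and not on the 2-fold limit. *Tnfsf8* scored 806, 720, 1076, and 1148 against 1317 to 1651 (−0.72 ± 0.18, adjusted p = 0.06484). *Tnfsf10* scored 585, 566, 604, and 660 against 265 to 472 (0.74 ± 0.21, adjusted p = 0.09492). *Cd40* scored 3348, 3594, 4751, and 3334, and overlapped No Dox through No Dox replicate 3 at 4398. Without that library *Cd40* passed, at 1.13 log2 units (adjusted p = 0.009337). That library also had the lowest MΦ and B-cell marker sums of its group, 219411 and 142, and their part in its *Cd40* score was not tested. *Tnf* scored 7085, 11975, 8423, and 6575 and *Ltb* 936, 475, 1055, and 682, both overlapping No Dox. MΦ marker sums were 321056 to 398236 and T-cell marker sums 2341 to 4278 at 1wk WD against 219411 to 304594 and 944 to 1663 at No Dox, without overlap, and acinar marker sums 265 to 49595 against 10015 to 2539970. Their part in the 1wk WD differences was not tested. Between 1wk WD and 1wk Dox 0 members passed, where 0.0866% of all genes did, with 6 (17.1%) at an unadjusted p under 0.05 against 9.7% of all genes, and *Tnfrsf13c* had the smallest p at 1.36 ± 0.31 (adjusted p = 0.1492). The 1wk Dox and 1wk WD comparisons share the 4 No Dox libraries. At 1wk WD 6 members did not overlap No Dox, where 9.24% of all genes did not.

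Downstream genes of the pathway were examined as lists of adaptors and kinases, NF-κB subunits, inhibitors and feedback genes, death effectors, and ligand-shedding proteases, 43 genes of which 42 were tested in MΦs. A single gene passed at either time point. *Nfkb2*, the p100/p52 subunit that CD40, RANK, and lymphotoxin β receptor act through, scored 1885, 2368, 995, and 1861 at No Dox, 4458 and 3723 in the Dox libraries, and 3874, 3528, 3656, and 2846 after withdrawal, and both later groups lay above No Dox without overlap. It rose by 1.26 ± 0.27 at 1wk Dox (adjusted p = 0.02489) and, at 1wk WD, by 1.03 ± 0.22 (adjusted p = 0.04575), beside the same shifts in marker sums, whose part was not tested. The first call was lost in 5 of 12 alternatives, among them leaving out either 1wk Dox library and the replicate block (adjusted p = 0.2482), and the second in 11 of 14, among them the replicate block (adjusted p = 0.07702) and leaving out any 1 library other than No Dox replicate 2. *Relb*, its partner, scored 4779 and 4152 at 1wk Dox against 2426 to 3761 (0.58 ± 0.20, adjusted p = 0.1251), and *Nfkb1* differed by 0.05 ± 0.18. That is 1 of 42 genes at each time point, where 2.26% and 0.626% of all genes passed. Of all genes, 30.9% did not overlap No Dox at 1wk Dox and 9.24% did not at 1wk WD. Over the 42 genes the median difference was 0.02 during Dox and 0.15 after withdrawal, and 0 were called lower. At No Dox, 26 of the 42 genes were higher and 1 lower in MΦs than in β cells, where 19.7% of all genes were called higher. All 6 death effectors were higher in ECs than in β cells, where 16.5% of all genes were.

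In ECs, 0 of 26 members passed between 1wk WD and No Dox, where 1.76% of all genes passed, and 8 (30.8%) had an unadjusted p under 0.05, 3 higher and 5 lower, against 21.9% of all genes. *Cd40* scored 1122, 991, 1980, 2008, and 1439 against 653 to 872, without overlap, at 0.97 ± 0.21 log2 units or 1.95-fold (adjusted p = 0.02555), just under the 2-fold limit, and passed without 1wk WD replicate 1 or 2 at 1.06 and 1.10. *Fas* scored 6227, 7016, 8291, 7598, and 8393 against 9484 to 10219, also without overlap, and differed by −0.40 ± 0.10 (adjusted p = 0.0497), a 1.32-fold difference. *Tnfrsf8* (CD30) scored 99, 70, 283, 174, and 36 against 18 to 39 (2.04 ± 0.53, adjusted p = 0.05325), and its groups overlapped through 1wk WD replicate 5. Without replicate 5 it passed at 2.41 (adjusted p = 0.02474), and without replicate 4 *Tnfrsf25* passed at 1.04. *Tnfsf10* scored 27454 to 33730, around the No Dox values. The median difference over the 26 members was −0.06, against 0.00 over all genes. Of the 26 members 3 did not overlap No Dox, where 10.7% of all genes did not. Stromal marker sums were 1123 to 5538 at 1wk WD and 520 to 1411 at No Dox. EC marker sums were 207574 to 247501 and 256158 to 294982, without overlap, and acinar marker sums 98 to 15752 and 11569 to 371130. The part of these shifts in the EC scores was not tested.

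The single 1wk Dox EC library was compared without a test. Of 25 members it lay past 2-fold of the No Dox mean in 4, or 16%, where 10.7% of all genes did, and outside the No Dox range in 21 (84%), where 62.1% of all genes were. *Tnfsf18* scored 3651 against 1026 to 1406 and *Tnfrsf8* 63 against 18 to 39. *Tnfrsf11a* scored 676 against 1304 to 1506 and *Tnfsf9* 5 against 15 to 38. *Fas* at 5604 and *Tnfrsf10b* at 2333 lay below their No Dox ranges of 9484 to 10219 and 3629 to 4358, and below each of the 5 1wk WD libraries. *Tnfrsf11b* scored 1393 against 536 to 800. This library also belongs to the second run of library numbers. Its acinar markers summed to 15 against 11569 to 371130 at No Dox, and its EC markers to 299374 against 256158 to 294982. T-cell markers summed to 26 against 36 to 106, B-cell markers to 33 against 45 to 78, and NK-cell markers to 88 against 15 to 46. Stromal and MΦ marker sums lay inside the No Dox range. The part of these shifts in its scores was not tested.

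Whether the effect of time differed between MΦs and ECs was tested directly at 1wk WD. Of 37 members 0 passed, where 1.4% of all genes did, with 11 (29.7%) at an unadjusted p under 0.05 against 21.2% of all genes. The smallest p belonged to *Tnfsf10*, with 0.81 ± 0.19 log2 units more in MΦs than in ECs (adjusted p = 0.03547), under the 2-fold limit. *Tnfrsf8* followed at −2.81 ± 0.74 (adjusted p = 0.05748) and *Tnfsf13b* at −1.32 ± 0.36 (adjusted p = 0.06518).

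In β cells, 0 of 34 members passed at 1wk Dox against No Dox, where 0.0122% of all genes passed, 0 at 1wk WD against No Dox, where 0% did, and 0 at 1wk WD against 1wk Dox, where 0% did. At an unadjusted p under 0.05 there were 6, 5, and 2 members (17.6%, 14.7%, and 5.88%), against 6.99%, 8.17%, and 6.31% of all genes. The No Dox libraries spread widely, since members fell on opposite sides in replicates 1 and 2 and in replicates 3 and 4. *Cd40* scored 13 and 8 in the first 2 and 180 and 238 in the others, *Tnfrsf1b* 14 and 39 against 290 and 599, *Fas* 36 and 13 against 239 and 443, and *Tnfrsf14* (HVEM) 97 and 83 against 463 and 722. *Tnfrsf11b* ran the other way, at 2037 and 1898 against 592 and 117, as did *Tnfrsf9*. The libraries with low *Cd40* and high *Tnfrsf11b* were those with β-cell marker sums of 8202570 and 5113874, against 1531845 and 573019.

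Leaving No Dox replicates 3 and 4 out was a choice made after seeing the data, so the calls it gives are no support for a change. It removes the libraries in which *Cd40*, *Tnfrsf1b*, *Fas*, and *Tnfrsf14* are high, so the differences that remain for them follow from that choice. Past the thresholds were then 6 members at 1wk Dox, where 7.36% of all genes were, and 8 at 1wk WD, where 8.74% were, all higher. Among them *Tnfrsf12a* was not higher in the removed libraries (89 and 3) than in those kept (106 and 31). The libraries also differ in stromal markers, which summed to 142 and 217 in the 2 No Dox libraries, to between 33536 and 115268 during Dox, and to between 9699 and 166017 after withdrawal. Dendritic cell markers summed to 273 and 453, to between 2050 and 3879, and to between 2474 and 10964. MΦ markers summed to 807 and 480, to between 985 and 2110, and to between 3773 and 5438. EC markers summed to 1125 and 784, to between 525 and 26641, and to between 1687 and 9580. The Dox library with the highest EC sum, replicate 1, also held the highest scores of its group for the EC-high members *Tnfrsf26* (532), *Fas* (571), and *Tnfrsf10b* (414). *Tnfrsf12a*, the receptor for TWEAK, stood apart from all 4 No Dox libraries at both time points. During Dox it scored 390, 633, 454, 603, and 667, and after withdrawal 438, 209, and 442, against 106, 31, 89, and 3 at No Dox. Its difference over all 4 No Dox libraries was 4.02 ± 0.81 (adjusted p = 0.2685) and 3.37 ± 0.92 (adjusted p = 0.5358), and 2.996 and 2.35 without replicate 4, the library at 3. *Tnfrsf12a* overlaps *Hcfc1r1* on the opposite strand, and the libraries carry no strand. At 1wk Dox 3 members did not overlap No Dox, where 2.55% of all genes did not. The others were *Tnfrsf10b*, at 414, 170, 155, 190, and 169 against 65 to 114 (1.20 ± 0.40, adjusted p = 0.5832), and *Tnfsf4*, at 1 in all 5 libraries against 2 to 35. At 1wk WD 4 did not, where 6.44% of all genes did not, *Tnfrsf12a*, *Cd40* (248 to 820 against 8 to 238), *Tnfrsf26* (139 to 298 against 5 to 98), and, lower, *Tnfrsf18* (207 to 283 against 308 to 469). Acinar markers summed to 9439 to 3345224 at No Dox, 22 to 3769 during Dox, and 87 to 137358 after withdrawal. Markers of alpha and delta cells (*Gcg*, *Sst*) summed to 33559 to 142294, 27726 to 151466, and 14980 to 80348. The part of stromal, EC, acinar, alpha and delta cell, and immune transcripts in the β-cell values was not tested.

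**Figure D5:**
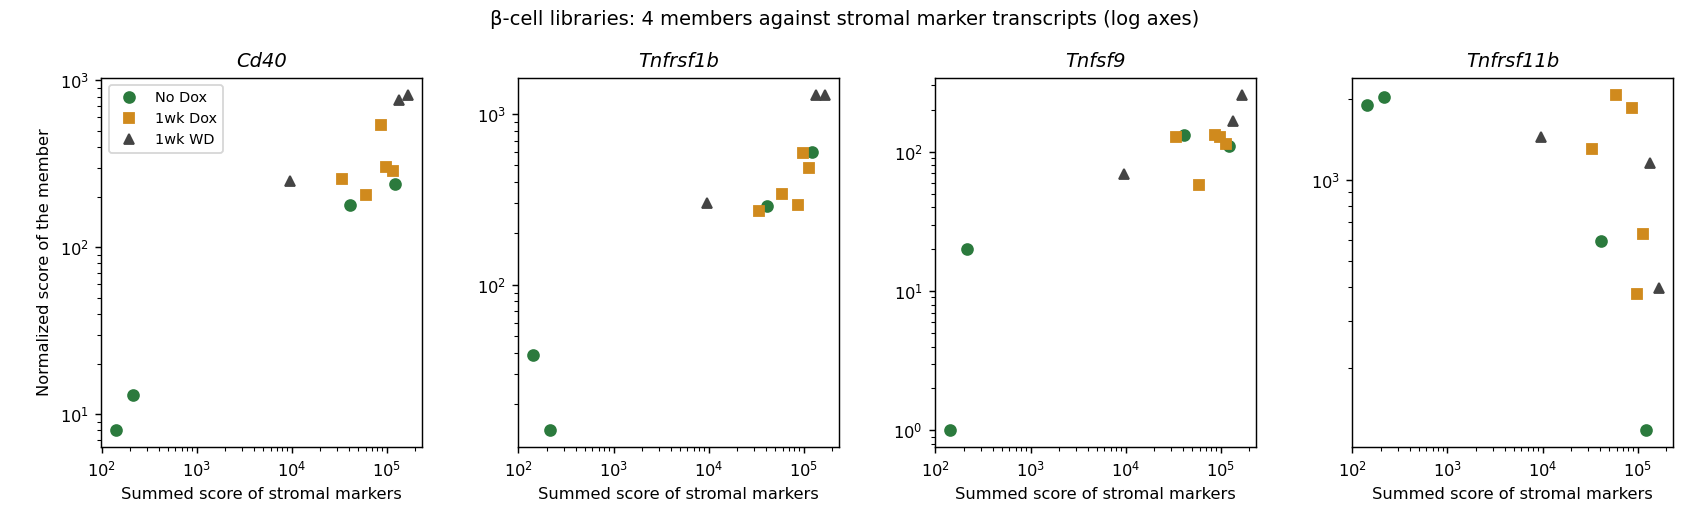
Scores of 4 members in the 12 β-cell libraries against the summed score of 4 stromal markers, both on logarithmic axes, with a symbol for each time point. The 2 No Dox libraries at stromal sums of 142 and 217 hold the lowest *Cd40*, *Tnfrsf1b*, and *Tnfsf9* scores, and their *Tnfrsf11b* scores of 1898 and 2037 are among the highest.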

How the data were processed

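RNA of sorted β cells, ECs, and MΦs was amplified by the authors (NuGEN Ovation), sequenced as paired-end reads, and aligned with TopHat2 2.0 to mm9, as the labels list them. The deposited values are scores, which the authors normalized by the TMM method in Avadis NGS and rounded to whole numbers. They are not counts, and depth and counting error are unknown. The table holds 6 further columns of per-sample values that matched no sample here and were not used. Whether they are libraries of the 1wk Dox EC and MΦ groups, which hold 1 and 2 libraries here, is not known from the labels. Samples were grouped by their labels.

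For the tests, limma 3.58.1 (R 4.3.3, empirical Bayes with a trend) took log2(score + 1) of genes whose mean reached 20 in a fitted group. For β cells and MΦs the fit held all 3 time points, for ECs No Dox and 1wk WD, and cell types were compared at No Dox and at 1wk WD in separate fits of 3 cell types. A gene was called at an adjusted p under 0.05 (Benjamini-Hochberg over all genes of the fit) and a 2-fold difference. The paper names the samples biological replicates, each pooled from several mice. The labels do not say which mice were pooled into which sample or whether samples shared mice, so p-values measure the spread between these pools. Samples were not treated as paired. In no pair of groups with 3 or more shared numbers did every same-numbered pair correlate above 0.1 (correlations from -0.519 to 0.404). This cannot exclude that same-numbered samples came from the same islets. At 1wk WD the highest acinar sums were in replicate 1 of all 3 cell types (137358, 15752, and 49595). At No Dox they were in replicate 2 of ECs and MΦs (371130 and 2539970) and in replicate 3 of β cells.

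The members and lists were chosen with earlier results of these data known. Values are given for every member called between time points, for the 4 largest rises and 4 largest falls per cell type comparison among members called the same way at both time points, and for receptors of the ligands described. Some further members that missed the test are given for context and were chosen after their values were seen. Alternatives were a pseudocount of 20, no filter, median-of-ratios scaling, no trend, a replicate block, only the 2 groups compared, and leaving out each replicate. Python 3.11.15, pandas 2.3.3, numpy 2.4.6, and matplotlib 3.10.9 were used. The fit was checked on simulated data. Gene spans overlapped for *Cd27* with *Vamp1*, *Tnfrsf12a* with *Hcfc1r1*, and *Tnfsf9* with *Gm11110* on opposite strands, and for *Tnfsf13* with *BC096441* on the same strand.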

Additional observations from a re-analysis of the deposited data

Results flagged for a closer look

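In 17 of 171 groups of 4 or 5 libraries with a mean score of at least 20, the highest or lowest library stood apart from the others on the log2 scale by Dixon's 95% criterion, which chance meets in about 1 of 20 groups. In No Dox MΦs these were *Fasl* at 1, *Cd40* at 4398, and *Tnfsf13* at 415, and in 1wk WD MΦs *Tnfrsf18* at 174, *Tnfrsf13b* at 1494, and *Tnfrsf13c* at 695. In ECs they were *Tnfrsf25* at 54 and *Tnfrsf23* at 1356 at No Dox, and *Tnfrsf25* at 53, *Cd27* at 19, *Ltbr* at 382, and *Tnfrsf26* at 9191 at 1wk WD. In β cells they were the higher row of *Tnfrsf22* at 414 at No Dox, and *Tnfrsf8* at 339, *Cd27* at 1140, *Tnfrsf10b* at 414, and *Tnfsf9* at 58 at 1wk Dox. The *Tnfrsf8* and *Cd27* values belong to the same 1wk Dox β-cell library, replicate 4, which also had the highest T-cell marker sum of that group at 10633 against at most 422 in the others. The *Cd27*, *Ltbr*, and *Tnfrsf25* values at 1wk WD belong to EC replicate 4. The *Tnfrsf10b* value belongs to 1wk Dox β-cell replicate 1, which had the highest EC marker sum of its group, 26641.

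The change of *Tnfsf10* from No Dox to 1wk WD differed between MΦs and ECs by 0.81 log2 units (interaction in limma, adjusted p = 0.03547), with all 4 MΦ libraries at 1wk WD above the No Dox range. EC scores overlapped between the time points.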

How the results depend on the processing

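Of 208 counts of members recomputed under an alternative, 187 stayed within 1.5 times the reported count, and of 2091 recomputed values of single called members 96 lost the call and 0 changed direction. The 3 calls in MΦs at 1wk Dox became 1 without the filter on low scores (*Tnfsf13b*), and 0 without the trend, with only the 2 groups, or with the replicate block, and leaving out 1 replicate gave 0 to 4 calls, 4 without No Dox replicate 2 (with *Tnfsf15*) or 3 (with *Cd40*). The lone library left in that arm is then assumed to vary like the other groups. Leaving out 1 replicate gave 0 to 1 calls in ECs at 1wk WD, in MΦs at 1wk WD against No Dox (*Cd40*), and in the difference between MΦs and ECs. A pseudocount of 20 gave 1 call in that difference (*Tnfsf13b*) and 2 members past 2-fold in the single 1wk Dox EC library, and only the 2 groups gave 1 in MΦs between 1wk WD and 1wk Dox (*Tnfrsf13c*). With the replicate block, *Tnfrsf8* was the 1 call in ECs and the 1 call in the difference. No Dox β cells by replicates 1 and 2 gave 6 calls at 1wk Dox and 8 at 1wk WD. The cause was not tested. Another scaling moved the median of all genes by 0.119 log2 units in the β-cell fits and by at most 0.0924 in the others. Unknown depth limits scores near 1, and 2 or 3 libraries in a group limit the 1wk Dox MΦ and 1wk WD β-cell results.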
